A study of Xenopus tropicalis with 12 samples.

Results

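The climax of metamorphosis in the tadpole brain, Nieuwkoop-Faber (NF) stage 62, was set against the stages on either side of it, NF56 and NF66, to find the genes that stood apart at the climax. The data are RNA sequencing of a dissected block of brain, with the preoptic area, hypothalamus and thalamus in it, from the frog Xenopus tropicalis. NF62 (climax), NF56 (prometamorphosis) and NF66 (completion) had 3 libraries each, numbered 1, 2 and 3. These are 9 of the 12 samples of the series. The other 3 come from NF50 (premetamorphosis, numbered 1, 3 and 4); they entered the model to share its estimate of the spread, and their values are given as a description only. Every animal was wild type, no group received a treatment, and all were reared under the same light cycle and temperature. Hormone was not measured in these samples, and the number of animals behind each library was not stated.

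Genes were chosen by a contrast of NF62 with the mean of the NF56 and NF66 stage means, on the log2 scale, over the 19584 gene models with enough reads of the 33875 in all. Values per gene are read counts relative to the scaled library total (CPM), and every mean ± SD has n = 3 libraries. Fold changes are log2 values ± SE from edgeR's quasi-likelihood test, with p-values adjusted over all 19584 models and a threshold of 0.05. A gene is called higher or lower at NF62 where this contrast passed. It is said to stand above or below both flanking stages where NF62 also passed, in the same direction, against NF56 and against NF66 separately.

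Metamorphosis is driven by thyroid hormone, which is low in the young tadpole, climbs through prometamorphosis, peaks at the climax and then declines. The hormone binds receptors of the thra and thrb genes, which sit on DNA with a retinoid X receptor as partner. Without hormone these receptors hold corepressors and keep their target genes down, and with hormone they exchange them for coactivators. A small set of direct targets, among them thrb itself, klf9, thibz and dio3, is known from tadpole tissues, and the brain at this time loses larval traits, adds neurons and myelin and rewires.

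Total expected counts ran from 12046529 in NF56 replicate 3 to 31029733 in NF66 replicate 3, and the NF62 libraries held 22601004 to 25551912. After the stage means were removed, an axis with 54.2% of the remaining variance set NF62 replicate 2 (score -54.2) apart from NF62 replicates 1 and 3 (25.0 and 29.1), NF56 replicate 2 (-33.4) from NF56 replicate 3 (42.1), and NF66 replicate 2 (-42.2) from NF66 replicate 3 (49.8). Replicate 3 was positive on it at NF50 too (32.9), and replicate 1 scored -9.03, -8.69 and -7.67 at NF50, NF56 and NF66. The tests below hold no term for the replicate number, and a fit with it is given among the alternatives. Of 10 markers of hypothalamus and preoptic area, 8 had a gene model with enough reads to test, among them avp, oxt, trh and otp. No model carried the names hcrt or agrp. The 8 had a summed level of 1003 to 1126 CPM at NF62, 834 to 914 CPM at NF56 and 1132 to 1380 CPM at NF66. Of the thalamus markers tcf7l2 and lhx2 were tested, and lhx2 was called lower at NF62. Together they summed to 571.3 to 724.0 CPM at NF62, 731.4 to 825.9 CPM at NF56 and 518.6 to 660.7 CPM at NF66. The part of thalamic tissue in the results below was not tested. Pituitary markers summed to 24.1 to 47.7 CPM at NF62, 49.5 to 52 CPM at NF56 and 9.23 to 16.6 CPM at NF66, with tshb, lhb and fshb too low to test.

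At NF62, 865 genes were higher than the flanking mean (4.42% of those tested) and 647 were lower (3.30%). Of the 865, 655 passed against NF56 alone, 65 against NF66 alone and 22 against neither; of the 647, 470, 56 and 18 did so, all counted in the direction of the contrast. Among the 655, NF66 was also higher than NF56 in 436 and did not differ from it past the threshold in 219; among the 470, NF66 was also lower in 285 and did not differ past the threshold in 185. In 2 of the 655 and 5 of the 470, NF62 also differed from NF66, in the opposite direction. The remaining 123 genes stood above both stages (0.628%) and 103 below both (0.526%). The 3 NF62 libraries did not overlap the 6 flanking libraries in any of these 226 genes. Over all genes tested, 4.24% showed such a separation upward and 3.52% downward. Where non-overlap is given below for a gene called against both stages, it describes the values and is no further evidence for the call. It was also a condition for naming the largest rises and falls. In dissected tissue, more cells of a type and more RNA per cell cannot be told apart, and this holds for every gene below.

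Most of the differences were small. Among the 123 genes above both stages the median log2 fold change was 0.45, with a range of 0.18 to 4.47; 14 differed by at least 2-fold and 83 by less than 1.5-fold. The 103 below both had a median of -0.55 and a range of -0.22 to -1.95, with 12 of at least 2-fold and 60 under 1.5-fold. A gene symbol was attached to 102 of the genes above and 70 of those below. When each of the 12 libraries was left out in turn, 21 of the 123 and 12 of the 103 kept the call in every fit, and no gene changed direction in any of the 19 alternative fits. The number above both dropped to 36 without NF62 replicate 1, 47 without NF62 replicate 2, 29 without NF62 replicate 3 and 32 without NF66 replicate 2. The number below both dropped to 29, 69, 13 and 37 in the same fits. A model of the 9 libraries of NF56, NF62 and NF66 without NF50 kept 52 of the 123 and 52 of the 103. Of the genes above both stages described below, inhbb, fam83g, thrb, fstl3, adamts3, dnmt3a, fst/ndufs4, atp5c1/pfkfb3, p2ry6/serpinh1, atp5j2, uqcrfs1, fasn, psmd8, psma7, nsd1, eif4g1, rxrb, hyou1 and ahsa1 lost the call in it. Of those below both, eif4b, eif3e, pdcd4, col5a1, sh3bgrl2, znf395, guca1b, znf593, cfb, myoc, fkbp4 and the less stable of 2 models named usp13 did so. Limma on log2(TPM + 1) kept thibz, jhdm1d and the unnamed XLOC_014132 alone. The leave-outs that the leading genes failed are given with them below.

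**Figure D1:**
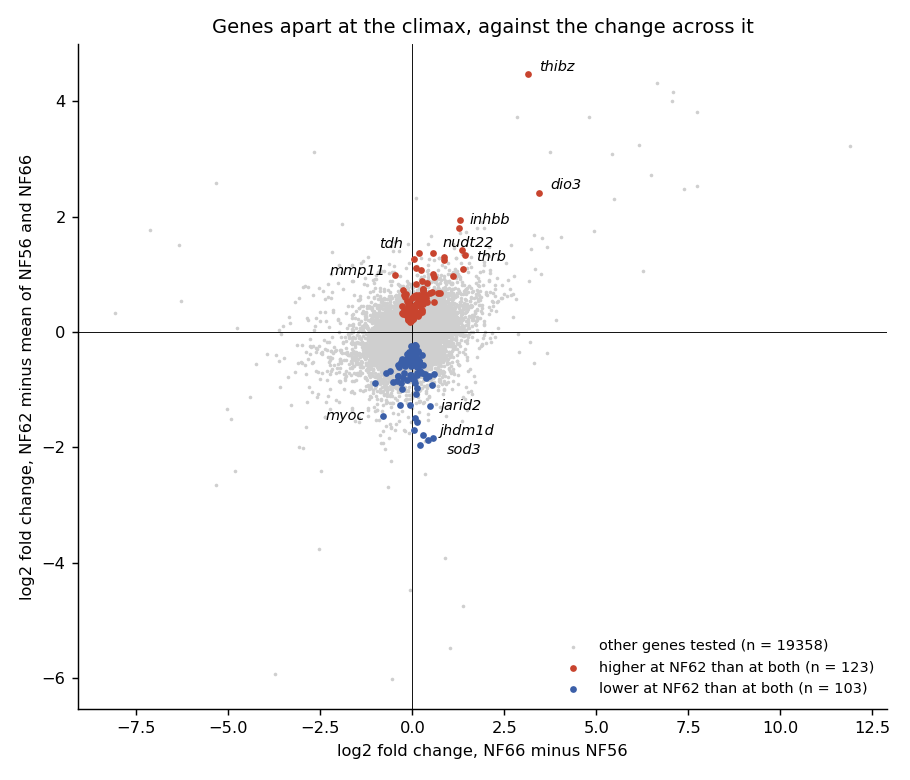
Each point is a gene tested; the horizontal axis is the log2 fold change of NF66 minus NF56 and the vertical axis that of NF62 minus the mean of NF56 and NF66. Red points are the 123 genes above both flanking stages and blue points the 103 below both, and thibz (4.47) and dio3 (2.41) lie highest among the red ones.

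Among the genes above both stages, the largest rises were those of thibz and dio3, genes of thyroid hormone action. The unnamed XLOC_014132 (1.93), inhbb (1.81) and others followed, ahead of thrb (1.33). The gene thibz, which codes for a basic leucine zipper transcription factor that the hormone receptors induce directly in tadpoles, had 48.7, 59.2 and 49.5 CPM at NF62, against 0.531, 1.36 and 0.397 CPM at NF56 and 7.34, 7.5 and 6.39 CPM at NF66. Every NF62 library lay far above every flanking library, and NF66 in turn lay above NF56. Its log2 fold change from the flanking mean was 4.47 ± 0.31 (adjusted p = 5.1e-05), the largest of any gene above both stages, with a 65.8-fold difference from NF56 and a 7.43-fold difference from NF66. The call against both stages held with any library left out, with a log2 fold change of 4.33 to 4.82. Another, less abundant gene model of the same name had 15.8, 9.05 and 11.3 CPM at NF62, against 0.449, 0 and 0.636 CPM at NF56 and 2.4, 1.78 and 3.07 CPM at NF66. Its libraries did not overlap either, and it passed the contrast (3.72 ± 0.53, adjusted p = 0.0026), though not the separate test against NF66 (adjusted p = 0.067).

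The gene dio3 codes for the type 3 deiodinase, which inactivates thyroid hormone. It had 58.1, 61.0 and 56.8 CPM at NF62, against 2.98, 3.59 and 3.5 CPM at NF56 and 31.7, 33.0 and 44.6 CPM at NF66. NF62 was the highest stage without overlap, but NF66 stayed close to it: the log2 fold change was 2.41 ± 0.13 from the flanking mean (adjusted p = 1.3e-05) and 0.68 from NF66 (adjusted p = 0.034). The receptor gene thrb had 79.8, 63.4 and 84.2 CPM at NF62, against 19, 17 and 19 CPM at NF56 and 47.9, 41.8 and 58.7 CPM at NF66. Again the stages did not overlap, with a log2 fold change of 1.33 ± 0.12 from the flanking mean (adjusted p = 0.00042). The contrast passed for dio3 and thrb with any library left out, at 2.36 to 2.50 for dio3 and 1.25 to 1.45 for thrb. The test against NF66 was less secure: the call against both stages failed for dio3 without NF50 replicate 1, NF56 replicate 1 or 2, NF66 replicate 1 or 2, or any NF62 replicate, and for thrb in every such fit except those without NF62 replicate 2 or NF66 replicate 3.

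The transcription factor gene klf9, another direct target, had 162.4, 86.2 and 158.8 CPM at NF62, against 25.9, 21.2 and 32.3 CPM at NF56 and 61.6, 40.9 and 90.9 CPM at NF66. NF62 replicate 2 lay below NF66 replicate 3, so that the NF62 and NF66 libraries overlapped, and klf9 was called against NF56 but not against NF66 (adjusted p = 0.084). Its contrast passed at 1.72 ± 0.25 (adjusted p = 0.0028). In 4 of the 19 alternative fits klf9 stood above both stages. These were the fits without NF62 replicate 2, without NF66 replicate 3, with DESeq2, and with the replicate number as a block.

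**Figure D2:**
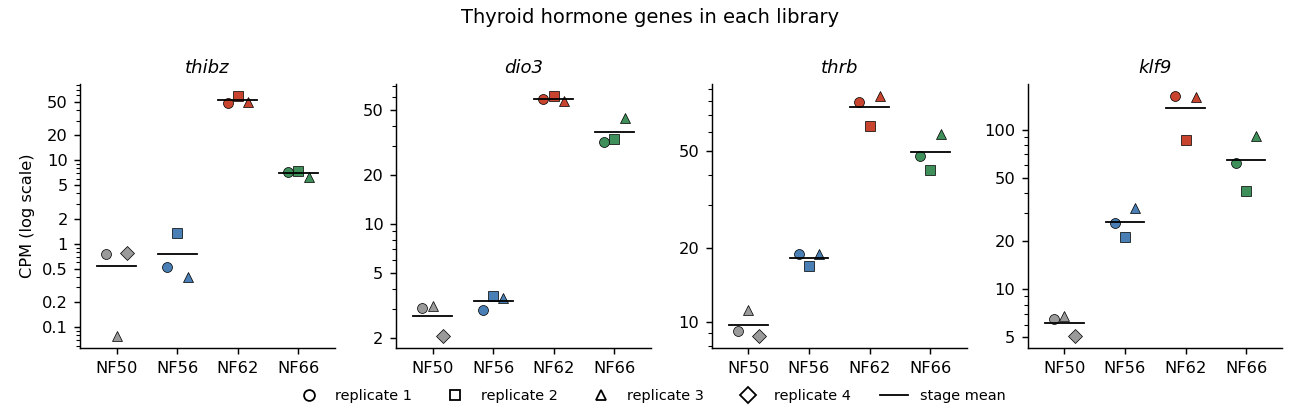
CPM on a log axis in each library of the 4 stages for thibz, dio3, thrb and klf9; symbols are replicates and bars stage means. NF62 is the highest stage for all 4 genes, and only klf9 has an NF62 library (86.2 CPM) below an NF66 library (90.9 CPM).

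Of 29 tested genes known to respond to thyroid hormone in tadpole tissues, 9 were higher at NF62 and 1 was lower, and 5 and 1 of these stood apart from both stages. The median of the list was 0.11, against 0.00 over all genes tested. Beside this list and those below, the shares over all genes tested were 4.42% higher and 3.30% lower. Over all genes, 0.628% stood above both stages and 0.526% below both. The 5 above both were thibz, dio3, thrb and the matrix protease genes mmp11 and mmp2. Those called higher against NF56 alone were klf9, bcl6, dot1l and the merged model tgm2/tti1, which counts reads of either gene. The gene bcl6, a transcriptional repressor, had 140.3, 121.2 and 126.6 CPM at NF62, against 41.3, 46 and 47 CPM at NF56 and 97.5, 92.3 and 111.0 CPM at NF66. Its libraries at NF62 lay above all others, yet the difference from NF66 was 0.37 with an adjusted p of 0.087. The lower gene, jhdm1d, is described with the histone-modifying enzymes.

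Transport, deiodination and receptor partner genes gave fewer calls: 4 of 25 tested were higher, none was lower, and the median was 0.07. All 4 stood above both stages, among them thrb, dio3 and rxrb. The gene rxrb, a retinoid X receptor, differed by far less than thrb and dio3, with 86.1 ± 0.789 CPM at NF62, against 76.2 ± 1.82 CPM at NF56 and 74.2 ± 0.888 CPM at NF66 (0.20 ± 0.04, adjusted p = 0.0092). It lost the call against both stages without NF56 replicate 3, any NF62 replicate or any NF66 replicate. The hormone-binding protein gene crym did not pass the contrast: it was at 11.9 ± 1.36 CPM at NF62 and 11.7 ± 1.53 CPM at NF56, both above 7.33 ± 0.423 CPM at NF66. A model with the name thra averaged 0.713 CPM at NF62, 0.834 CPM at NF56 and 0.809 CPM at NF66, and is not read as the receptor gene, which is known to be widely expressed in tadpoles.

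Receptors and response genes of the stress hormones had 1 call, nr3c2, among 20 tested (5% higher, against 4.42% of all genes). Corticosterone, the main glucocorticoid of frogs, also climbs at the climax and acts together with thyroid hormone. The glucocorticoid receptor gene nr3c1 was at 54.8 ± 6.37 CPM at NF62, 51.9 ± 3.37 CPM at NF56 and 60.5 ± 6.26 CPM at NF66, and its stages overlapped. The mineralocorticoid receptor gene nr3c2 had 44.4, 38.5 and 43.0 CPM at NF62, against 14.9, 15.2 and 19.7 CPM at NF56 and 30.6, 31.9 and 39.4 CPM at NF66. It passed the contrast (0.82 ± 0.11, adjusted p = 0.0024) and the test against NF56, while NF62 replicate 2 lay below NF66 replicate 3 and the test against NF66 did not pass (adjusted p = 0.28). Of the 19 alternative fits, only the 1 with the replicate number as a block placed nr3c2 above both stages.

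Among enzymes of DNA methylation, dnmt3a, which places new methyl groups on cytosine, stood above both stages. Its level was 855.4, 842.9 and 836.1 CPM at NF62, against 547.9, 500.0 and 481.1 CPM at NF56 and 723.6, 646.5 and 655.8 CPM at NF66. The NF62 libraries lay close together and above all others, at 0.53 ± 0.05 on the log2 scale (adjusted p = 0.00057). The call against both stages failed without NF62 replicate 1, NF62 replicate 3 or NF66 replicate 2. The maintenance methyltransferase gene dnmt1 was lower at NF62, with 43.0 ± 2.06 CPM, against 61.4 ± 5.93 CPM at NF56 and 46.0 ± 2.04 CPM at NF66 (-0.30 ± 0.06, adjusted p = 0.018). That difference was from NF56 alone, and the contrast did not pass without NF62 replicate 1, 2 or 3. Its partner gene uhrf1 had 7.47 ± 1.12 CPM at NF62, 13.6 ± 1.55 CPM at NF56 and 7.77 ± 1.3 CPM at NF66, and did not pass the contrast (adjusted p = 0.063).

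Genes linked to demethylation gave no call. The dioxygenase gene tet2 was at 80.8 ± 2.53 CPM at NF62, 84.4 ± 5.67 CPM at NF56 and 71.5 ± 3.51 CPM at NF66, and gadd45g at 21.6 ± 3.21, 20.8 ± 1.54 and 15.9 ± 3.5 CPM in the same stages. Of the 21 tested genes of DNA methylation and demethylation, 1 was higher (dnmt3a) and 2 were lower (dnmt1 and zbtb33), with a median of -0.04.

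A histone demethylase gene and a Polycomb gene were among the falls. The gene jhdm1d, an older name for the histone demethylase gene kdm7a, had 87.9, 138.3 and 78.2 CPM at NF62, against 338.8, 301.9 and 319.6 CPM at NF56 and 329.5, 553.5 and 415.6 CPM at NF66. The highest NF62 library, replicate 2, was still far under the lowest flanking library. Its log2 fold change was -1.87 ± 0.21 (adjusted p = 0.001). The gene jarid2, whose protein is an accessory subunit of Polycomb repressive complex 2, had 462.0, 495.3 and 489.9 CPM at NF62, against 951.2, 1029 and 997.4 CPM at NF56 and 1043, 1603 and 1521 CPM at NF66. The NF62 libraries lay below all the others by a wide margin, at -1.28 ± 0.13 (adjusted p = 0.00063). Both genes kept the call against both stages with any library left out, at -2.16 to -1.72 for jhdm1d and -1.37 to -1.22 for jarid2.

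Both falls were also below NF50, where jhdm1d was at 192.5 ± 27.8 CPM and jarid2 at 771.7 ± 87.2 CPM. The histone H3 lysine methyltransferase gene nsd1 went the other way, with 102.0, 95.8 and 98.9 CPM at NF62, against 77.8, 72.9 and 76.4 CPM at NF56 and 82.9, 85.7 and 86.4 CPM at NF66 (0.30 ± 0.04, adjusted p = 0.0023); its call against both stages was kept without NF50 replicate 3, NF56 replicate 2 or NF56 replicate 3 and lost without any of the others. These 3 were the members apart from both stages among 41 tested Polycomb and histone methylation enzymes, of which 2 were higher and 3 lower at NF62, with a median of -0.06. The other 36 of the 41 did not pass in either direction.

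The nuclear factor I gene nfic, which codes for a DNA-binding transcription factor of a family active in glial and neuronal maturation, rose. It had 98.5, 97.5 and 98.1 CPM at NF62, against 35.3, 34.3 and 32.3 CPM at NF56 and 76.1, 68.8 and 75.1 CPM at NF66. No stages overlapped, and most of the difference was from NF56 (1.53), with 0.42 from NF66 (adjusted p = 0.014) and 0.97 ± 0.06 from the flanking mean (adjusted p = 3.5e-05). Its call against both stages failed without NF62 replicate 1, NF62 replicate 3 or NF66 replicate 2.

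**Figure D3:**
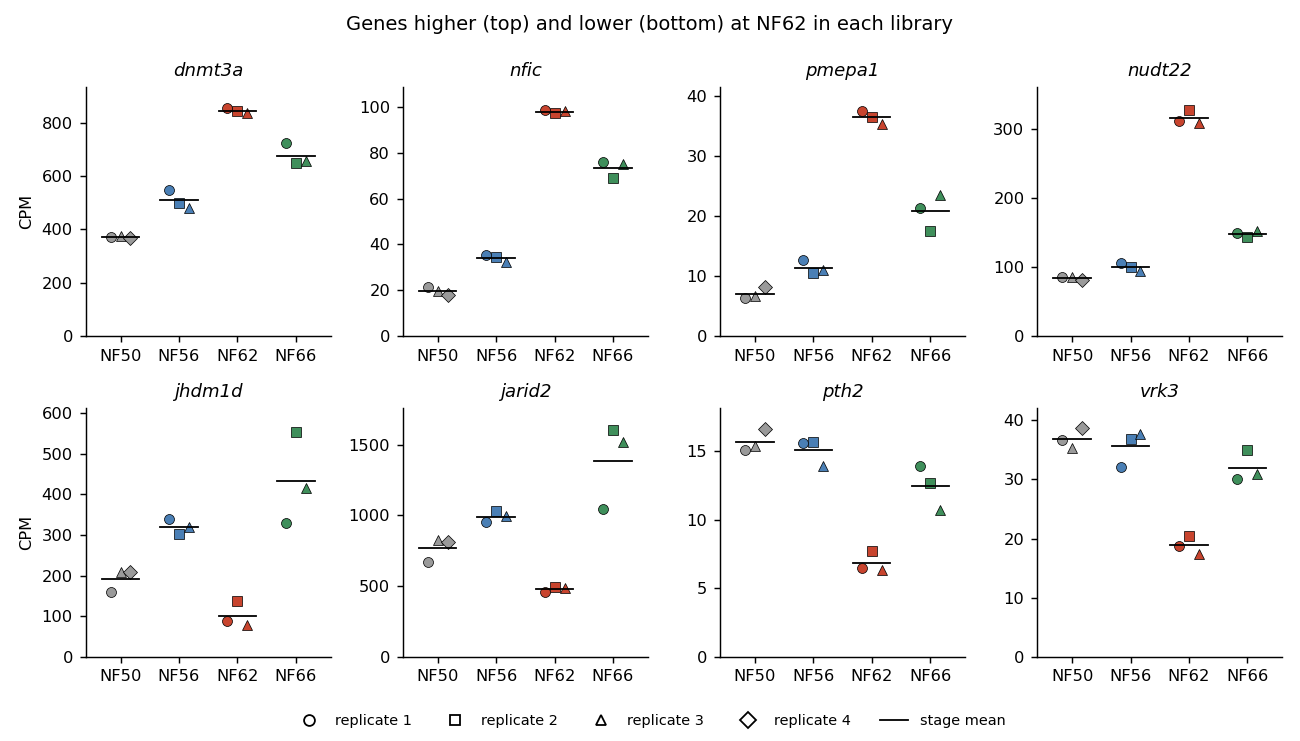
CPM in each library of the 4 stages for 4 genes higher at NF62 than at both flanking stages (dnmt3a, nfic, pmepa1 and nudt22) and 4 lower (jhdm1d, jarid2, pth2 and vrk3); symbols are replicates, bars stage means, and each axis starts at 0. In each panel the 3 NF62 libraries lie on 1 side of all 6 NF56 and NF66 libraries, as they do in every gene called against both stages.

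Genes of activin and related signals were among the other rises; they do not form a tested list. The gene inhbb, the beta B subunit of activin and inhibin, had 9.78, 7.01 and 8.64 CPM at NF62, against 1.27, 1.51 and 1.99 CPM at NF56 and 4.29, 2.52 and 4.38 CPM at NF66. Its libraries did not overlap, which was a condition for naming it, and it differed by 1.81 ± 0.23 (adjusted p = 0.002). Its test against NF66 stood at the threshold (adjusted p = 0.047). The gene fstl3, whose product binds activin, had 15.6 ± 2.31 CPM at NF62, against 6.67 ± 1.28 CPM at NF56 and 9.91 ± 1.0 CPM at NF66 (0.95 ± 0.13, adjusted p = 0.0023). Both are fragile calls: with a library left out, inhbb kept the call against both stages without NF50 replicate 3 alone, and fstl3 without NF56 replicate 3 alone, and any other library lost it.

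The gene pmepa1, a membrane protein that dampens signalling by transforming growth factor beta, had 37.5, 36.4 and 35.2 CPM at NF62, against 12.6, 10.5 and 11.0 CPM at NF56 and 21.3, 17.5 and 23.5 CPM at NF66. The stages were clearly apart, at 1.24 ± 0.10 (adjusted p = 0.00024), and the call held with any library left out. The inhibitory Smad gene smad6 was at 31.3 ± 2.27 CPM at NF62, against 20.7 ± 0.675 CPM at NF56 and 23.0 ± 1.52 CPM at NF66 (0.52 ± 0.07, adjusted p = 0.0018), and lost the call against both stages without NF62 replicate 3 or NF66 replicate 2.

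Matrix proteases are known targets of thyroid hormone in tadpole tissues that are being remodelled. Here mmp11, also called stromelysin 3, had 11.2, 11.9 and 11.3 CPM at NF62, against 6.01, 6.27 and 8.34 CPM at NF56 and 5.36, 4.56 and 4.84 CPM at NF66. The gelatinase gene mmp2 had 14.5, 12.8 and 13.9 CPM at NF62, against 6.7, 7.87 and 7.95 CPM at NF56 and 7.85, 8.39 and 8.04 CPM at NF66. For both genes the NF62 libraries were all higher, at 0.98 ± 0.14 for mmp11 (adjusted p = 0.0024) and 0.82 ± 0.11 for mmp2 (adjusted p = 0.0021). With a library left out, mmp11 always kept the call against both stages, and mmp2 lost it without NF62 replicate 1 or NF62 replicate 3. The procollagen-processing protease gene adamts3 also stood above both stages (0.73 ± 0.15, adjusted p = 0.016), with 15.2 ± 2.85 CPM at NF62, 9.96 ± 0.673 CPM at NF56 and 8.36 ± 1.31 CPM at NF66, and was as high at NF50 (14.7 ± 2.91 CPM). It kept the call without NF50 replicate 1, NF50 replicate 3, NF62 replicate 2 or NF66 replicate 1 and lost it in the other fits. Of 33 tested proteases and inhibitors, 5 were higher and none was lower, with a median of 0.10.

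The hyaluronan-degrading gene cemip, not on that list, was at 60.1 ± 5.49 CPM at NF62, against 29.2 ± 4.53 CPM at NF56 and 38.3 ± 1.71 CPM at NF66 (0.85 ± 0.09, adjusted p = 0.00069; lost without NF62 replicate 3 or NF66 replicate 2). Of 48 tested collagens and other matrix proteins, 2 were higher (4.17%) and 3 lower (6.25%), beside 4.42% and 3.30% over all genes. The 1 apart from both stages was col5a1, a fibrillar collagen gene, which was lower (-0.39 ± 0.07, adjusted p = 0.0093). It lost the call in each fit with a library left out but the one without NF62 replicate 2.

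Several further genes had their largest level at the climax. The gene nudt22, a hydrolase of nucleotide sugars, had 312.4, 328.6 and 308.6 CPM at NF62, against 106.6, 100.7 and 94.3 CPM at NF56 and 149.3, 143.1 and 153.0 CPM at NF66. The NF62 libraries were far above the rest, at 1.37 ± 0.05 (adjusted p = 1.6e-07), and the call against both stages held with any library left out. The threonine dehydrogenase gene tdh was at 20.5 ± 1.66 CPM at NF62, against 7.44 ± 1.58 CPM at NF56 and 8.47 ± 1.51 CPM at NF66 (1.37 ± 0.18, adjusted p = 0.0022). It did not differ past the threshold between NF66 and NF56 (0.18 ± 0.22, edgeR adjusted p = 0.65). It lost the call without NF62 replicate 1, NF62 replicate 3 or NF66 replicate 2.

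The gene proca1 behaved alike, with 126.2 ± 5.72 CPM at NF62, 56.9 ± 4.68 CPM at NF56 and 60.8 ± 9.44 CPM at NF66 (1.10 ± 0.12, adjusted p = 0.00089), in every fit with a library left out. The photoreceptor disc gene prph2 had 13.5, 14.7 and 12.3 CPM at NF62, against 5.64, 6.61 and 5.48 CPM at NF56 and 8.77, 6.19 and 5.99 CPM at NF66 (1.07 ± 0.13, adjusted p = 0.0016; lost without NF66 replicate 2). The defining photoreceptor genes rho and gnat1 were too low to test in the same libraries. The other retina and pineal markers, pde6g, rlbp1, crx, aanat and rpe65, were tested, and none passed the contrast. They summed to 21.9 to 26.8 CPM at NF62, 21.5 to 24.7 CPM at NF56 and 23.5 to 26 CPM at NF66. The genes fam83g (23.4 ± 2.61 CPM at NF62, 5.43 ± 1.19 CPM at NF56 and 13.9 ± 2.08 CPM at NF66) and entpd2, an ectonucleotidase (21.8 ± 1.68, 8.91 ± 1.46 and 13.2 ± 1.27 CPM in the same order), also stood above both stages. The gene fam83g differed by 1.42 ± 0.14 and entpd2 by 2-fold (adjusted p = 0.0024). The gene fam83g kept the call without NF50 replicate 3, NF56 replicate 1, NF56 replicate 2 or NF66 replicate 3, and entpd2 without NF50 replicate 3 or NF56 replicate 3, but neither did so in any other fit with a library left out.

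Proteasome subunits were the list with the largest share of members called. The proteasome degrades proteins tagged with ubiquitin. Of 34 subunits tested, 13 were higher at NF62 and none was lower, 8 stood above both stages, and the median was 0.21. Among all genes tested, 4.42% were higher and 0.628% stood above both stages. The NF62 mean was the highest of the 3 stages for 30 of the 34, against 27.6% of all genes tested. Their summed level was 2773, 3023 and 2758 CPM at NF62, against 2668, 2655 and 2532 CPM at NF56 and 2469, 2487 and 2284 CPM at NF66. The NF62 sums lay above all the flanking sums, and NF50 was higher still, at 3282, 3116 and 3206 CPM. Replicate 2 was the highest library at NF62 and NF66, though not at NF56. The part of the within-stage axis in this was not tested. The number above both stages dropped to 4 without NF62 replicate 1, NF62 replicate 2 or NF56 replicate 2, to 3 without NF62 replicate 3 and to 5 without NF66 replicate 1 or 2.

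Within the proteasome, the 20S core subunit gene psma4 had 79.0, 86.8 and 78.2 CPM at NF62, against 61.8, 55.3 and 53.4 CPM at NF56 and 63.7, 61.7 and 57.2 CPM at NF66. Its NF62 libraries were all higher, at 0.47 ± 0.06 (adjusted p = 0.0018). The lid subunit gene psmd7 had 59.8, 62.9 and 64.7 CPM at NF62, against 51.7, 47.7 and 52.0 CPM at NF56 and 46.9, 43.7 and 44.6 CPM at NF66 (0.39 ± 0.06, adjusted p = 0.0037). The gene psme3 of the PA28 gamma activator was at 101.0 ± 3.28 CPM at NF62, against 83.9 ± 3.55 CPM at NF56 and 78.9 ± 4.42 CPM at NF66 (0.31 ± 0.05, adjusted p = 0.0043). These 3 kept the call against both stages with any library left out. The others were psma7 and psmb7 of the core and psmc1, psmd8 and psmd13 of the regulatory particle, with log2 fold changes of 0.27 to 0.36. The ubiquitin hydrolase gene uchl3, outside the list, had 34.7, 39.8 and 35.6 CPM at NF62, against 23.5, 23.5 and 21.9 CPM at NF56 and 27.0, 22.8 and 23.9 CPM at NF66 (0.63 ± 0.08, adjusted p = 0.0016), also in every fit.

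Nuclear genes of oxidative phosphorylation had 15 of 55 members higher at NF62 and 1 lower, with a median of 0.20, and the NF62 mean was the highest of the 3 stages for 41 of the 55. Shares over all genes were 4.42% higher, 3.30% lower and 0.628% above both stages, and the NF62 mean was the highest for 27.6%. Their summed level overlapped between the stages all the same, at 11396, 12564 and 11285 CPM at NF62, 11785, 12162 and 11291 CPM at NF56 and 10855, 11633 and 10275 CPM at NF66. Replicate 2 was the highest library of each of these 3 stages, and the part of the within-stage axis in this was not tested. At NF50 the summed level was higher still, at 14698, 13688 and 14459 CPM. The 5 above both were cycs, uqcrfs1, atp5j2 and the merged models fst/ndufs4 and atp5c1/pfkfb3, which count reads of either gene. The gene cycs, cytochrome c, had 64.8, 72.6 and 66.5 CPM at NF62, against 44.7, 42.6 and 35.8 CPM at NF56 and 50.0, 45.3 and 44.5 CPM at NF66 (0.63 ± 0.07, adjusted p = 0.0011), with no overlap, in every fit with a library left out. Its level at NF50 was higher still (78.4 ± 2.56 CPM). The model fst/ndufs4 was at 60.4 ± 5.76 CPM at NF62, 46.6 ± 3.33 CPM at NF56 and 46.3 ± 3.86 CPM at NF66 (0.38 ± 0.07, adjusted p = 0.013). The 4 members other than cycs had log2 fold changes of 0.25 to 0.38, and without any 1 of NF50 replicate 1, NF56 replicate 2, NF62 replicates 1 to 3, NF66 replicate 1 or NF66 replicate 2, 1 member of this list kept the call.

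Cholesterol synthesis differed in its shape. Of 21 tested members 6 were higher at NF62 and none was lower, with a median of 0.30, but 4 of the 6 passed against NF66 alone. Their summed level was 1892, 2040 and 1874 CPM at NF62, against 2047, 1760 and 1697 CPM at NF56 and 1332, 1047 and 1210 CPM at NF66. NF62 overlapped NF56 and both lay above NF66. The gene hmgcs1, which makes the substrate of the rate-limiting step, was at 435.7 CPM on average at NF62, 347.8 CPM at NF56 and 187.9 CPM at NF66, with a log2 difference of 1.21 from NF66 (adjusted p = 0.0058) and 0.32 from NF56 (adjusted p = 0.21). The 2 members above both stages were srebf1 and stard4, a regulator of lipid synthesis and a sterol carrier. The gene srebf1 had 64.5, 64.6 and 64.9 CPM at NF62, against 50.4, 46.7 and 48.8 CPM at NF56 and 47.0, 45.7 and 51.7 CPM at NF66 (0.42 ± 0.05, adjusted p = 0.002), in every fit with a library left out. The gene stard4 was at 31.4 ± 1.54 CPM at NF62, 19.4 ± 1.27 CPM at NF56 and 20.6 ± 1.51 CPM at NF66 (0.65 ± 0.09, adjusted p = 0.0021), and lost the call without NF62 replicate 1 or NF66 replicate 2.

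Known targets of the srebf1 protein were among the genes above both stages as well. Those given here were picked after their values were seen, and a link between them and srebf1 was not tested. The fatty acid synthase gene fasn had 532.3, 540.4 and 539.7 CPM at NF62, against 485.0, 421.7 and 442.4 CPM at NF56 and 412.0, 345.5 and 391.3 CPM at NF66. The desaturase gene scd had 657.1, 670.8 and 644.0 CPM at NF62, against 604.4, 555.6 and 550.2 CPM at NF56 and 514.0, 479.5 and 509.0 CPM at NF66. Neither overlapped, at 0.37 ± 0.06 for fasn (adjusted p = 0.005) and 0.30 ± 0.04 for scd (adjusted p = 0.0031). They kept the call against both stages in 7 and 8 of the 12 fits with a library left out, and failed it without NF56 replicate 2, NF56 replicate 3, NF62 replicate 1 or NF62 replicate 2; fasn also failed it without NF62 replicate 3.

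**Figure D4:**
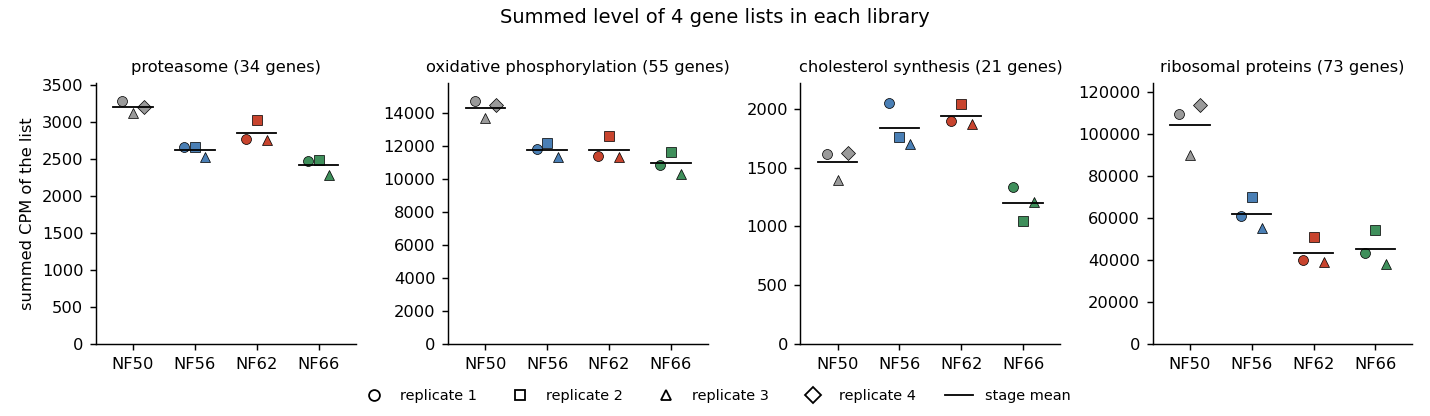
Summed CPM of the tested members of 4 gene lists in each library; symbols are replicates, bars stage means, and each axis starts at 0. The NF62 sums of the 34 proteasome subunits lie above those of NF56 and NF66 and below those of NF50. Those of cholesterol synthesis overlap NF56. Ribosomal protein sums are highest at NF50, lower at NF56 and lower again at NF62 and NF66.

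Falls below both stages, other than jhdm1d and jarid2, were in genes of several kinds. The gene pth2 codes for a neuropeptide of the parathyroid hormone family that is made in the thalamus of mammals. It had 6.49, 7.74 and 6.37 CPM at NF62, against 15.6, 15.7 and 13.9 CPM at NF56 and 13.9, 12.7 and 10.7 CPM at NF66. All NF62 libraries were lower, at -0.99 ± 0.11 (adjusted p = 0.00085). The kinase gene vrk3 had 18.7, 20.4 and 17.4 CPM at NF62, against 32.1, 36.9 and 37.7 CPM at NF56 and 30.1, 35.0 and 30.9 CPM at NF66, at -0.84 ± 0.08 (adjusted p = 0.00057). The gene cby1, whose protein antagonises beta-catenin and sits at the base of cilia, had 64.0, 59.6 and 58.6 CPM at NF62, against 78.8, 93.1 and 96.5 CPM at NF56 and 102.9, 119.1 and 118.5 CPM at NF66 (-0.73 ± 0.07, adjusted p = 0.00063). These 3 kept the call against both stages with any library left out, and the NF62 libraries also lay below those of NF50 in each.

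The lysosomal lipid amidase gene naaa had 2.42, 3.3 and 2.1 CPM at NF62, against 4.54, 5.68 and 5.8 CPM at NF56 and 5.63, 6.71 and 4.65 CPM at NF66 (-1.07 ± 0.19, adjusted p = 0.0077). Complement factor B, gene cfb, was at 5.5 ± 0.701 CPM at NF62, 8.64 ± 1.48 CPM at NF56 and 12.5 ± 2.5 CPM at NF66 (-0.92 ± 0.16, adjusted p = 0.0064). Both were at levels of a few CPM without overlap. The gene naaa lost the call against both stages without NF62 replicate 1, NF62 replicate 3, NF66 replicate 1 or NF66 replicate 2, and cfb without NF56 replicate 2, NF56 replicate 3, NF62 replicate 1 or NF62 replicate 2.

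Other falls that the rule named were znf593, znf395 and sh3bgrl2, the myosin phosphatase subunit ppp1r12b, the photoreceptor cyclase activator guca1b and the deubiquitinase usp13, with log2 fold changes of -0.76 to -0.89. They kept the call against both stages in 2, 7, 2, 10, 8 and 0 of the 12 fits in that order, and each of them lost it without NF62 replicate 3. Another gene model named usp13 was also below both stages, at 8.51 CPM on average at NF62, against 14.6 CPM at NF56 and 14.2 CPM at NF66, and lost the call without NF62 replicate 3 alone. Among genes of low abundance, falls were seen in sod3, the extracellular superoxide dismutase, with 0.409 ± 0.0579 CPM at NF62, against 1.25 ± 0.519 CPM at NF56 and 1.8 ± 0.658 CPM at NF66, and in myoc, with 1.12 ± 0.0533, 4.1 ± 1.01 and 2.33 ± 0.474 CPM in the same order. The call was kept in 8 of the 12 fits for sod3 and 4 for myoc, and both lost it without NF62 replicate 1, NF62 replicate 3 or NF66 replicate 2. The gene sod3 also lost it under DESeq2 and with a minimum count of 50.

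RNA helicases and translation factors appeared on both sides; they were picked after their values were seen. The helicase genes ddx3x and ddx17 stood below both stages. The gene ddx3x had 936.1, 1001 and 931.7 CPM at NF62, against 1300, 1427 and 1244 CPM at NF56 and 1307, 1766 and 1359 CPM at NF66 (-0.55 ± 0.09, adjusted p = 0.0057). The gene ddx17 was at 571.9 ± 13.9 CPM at NF62, 757.7 ± 29.1 CPM at NF56 and 713.3 ± 29.9 CPM at NF66 (-0.36 ± 0.05, adjusted p = 0.0018), and the splicing cofactor gene son at 644.8 ± 6.78, 819.2 ± 32.4 and 841.3 ± 73.9 CPM in the same order (-0.36 ± 0.05). All 3 lost the call against both stages without NF62 replicate 1 or NF62 replicate 3. The initiation factor genes eif4b (-0.38 ± 0.06) and eif3e (-0.51 ± 0.07), and pdcd4 (-0.58 ± 0.09), an inhibitor of the initiation helicase, were lower. That helicase, eif4a1, was higher, with 303.7, 342.2 and 301.0 CPM at NF62, against 274.5, 254.3 and 231.5 CPM at NF56 and 209.7, 222.3 and 193.4 CPM at NF66 (0.46 ± 0.07, adjusted p = 0.0038). Its scaffold gene eif4g1 (0.27 ± 0.05) and the release factor gene etf1 (0.39 ± 0.05) were higher too. Of these 6, etf1 kept the call in every fit with a library left out, and eif4b, eif3e, pdcd4, eif4a1 and eif4g1 kept it in 5, 3, 6, 9 and 7 of the 12. Without NF62 replicate 2 all of these 5 lost it, and eif4a1 alone of them kept it without NF62 replicate 1 or 3.

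Several other lists had called members but none apart from both stages. Of 69 tested synapse and mature neuron genes, 14 were higher and none was lower at NF62 (median 0.15), and all 14 passed against NF56 alone. Their summed level was 22557 to 23310 CPM at NF62, against 17950 to 18084 CPM at NF56 and 23259 to 24016 CPM at NF66. Of 67 tested replication and division genes, 10 were lower and 1 was higher (median -0.25), and 7 of 31 neural progenitor genes were lower, among them the intermediate filament genes nes and vim (median -0.15). In both lists every called member passed, in that direction, against NF56 and not against NF66; nusap1, a mitotic spindle gene, was in addition higher at NF62 than at NF66, with 2.62 CPM at NF62 and 1.33 CPM at NF66 on average (0.99, adjusted p = 0.0091). The replication licensing gene mcm2 did not pass, at 229.0 ± 11.3 CPM at NF62, 207.9 ± 3.39 CPM at NF56 and 233.6 ± 6.11 CPM at NF66. The summed level of the replication and division list was higher at NF62 than at NF56, unlike most of its called members. It was 4032, 4362 and 3941 CPM at NF62, 3612, 3601 and 3508 CPM at NF56 and 4029, 3783 and 3622 CPM at NF66.

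Ribosomal protein genes had 6 of 73 members lower and none higher, again from NF56 alone, with a median of -0.31 and every member's log2 fold change below 0. Their summed level was 40161, 50839 and 39291 CPM at NF62, against 60877, 69899 and 55071 CPM at NF56 and 43362, 54447 and 38031 CPM at NF66. At NF50 it was higher still, at 109819, 90140 and 113794 CPM, so the level was already lower by NF56. Replicate 2, which lay at the negative end of the within-stage axis in each of these 3 stages, was the highest library of each; the part of that axis in the list's result was not tested. Glycolysis and glucose transport had 10 of 36 members higher and 1 lower (median 0.16), heat shock and the unfolded protein response 8 of 37 higher and 2 lower (0.14), and each had 1 member above both stages, a merged model in both cases. For glycolysis this was atp5c1/pfkfb3, already counted with oxidative phosphorylation. It kept the call in 3 of the 12 fits with a library left out. For heat shock the member was p2ry6/serpinh1, which kept the call in 2 of the 12. The summed level of the heat shock list was 6763, 7267 and 6660 CPM at NF62 and 7398, 7519 and 7073 CPM at NF56. At NF66 it was 6856, 6980 and 6522 CPM, and at NF50 9284, 8697 and 9306 CPM.

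Oligodendrocyte genes had no call among 24. The myelin gene mbp was at 840.3 ± 58.8 CPM at NF62, between 544.9 to 564.9 CPM at NF56 and 1090 ± 127.3 CPM at NF66. Among the remaining lists, members called higher and lower numbered 3 and 6 of 41 for neurogenesis, 3 and 1 of 29 for hypothalamic neuropeptides, 0 and 2 of 47 for axon guidance, 1 and 3 of 43 for the amino acid starvation response and tRNA synthetases, 2 and 1 of 41 for autophagy and lysosome, and 4 and 0 of 30 for apoptosis. They numbered 1 and 0 of 18 for the circadian clock, 1 and 1 of 35 for immediate early genes, and 2 and 1 of 33 for other nuclear receptors. Beside these counts, 4.42% of all genes tested were higher and 3.30% lower. The members apart from both stages in these lists were the apoptosis genes bmf (0.54 ± 0.11, adjusted p = 0.012, kept in 4 of the 12 fits) and cycs, and rxrb.

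**Figure D5:**
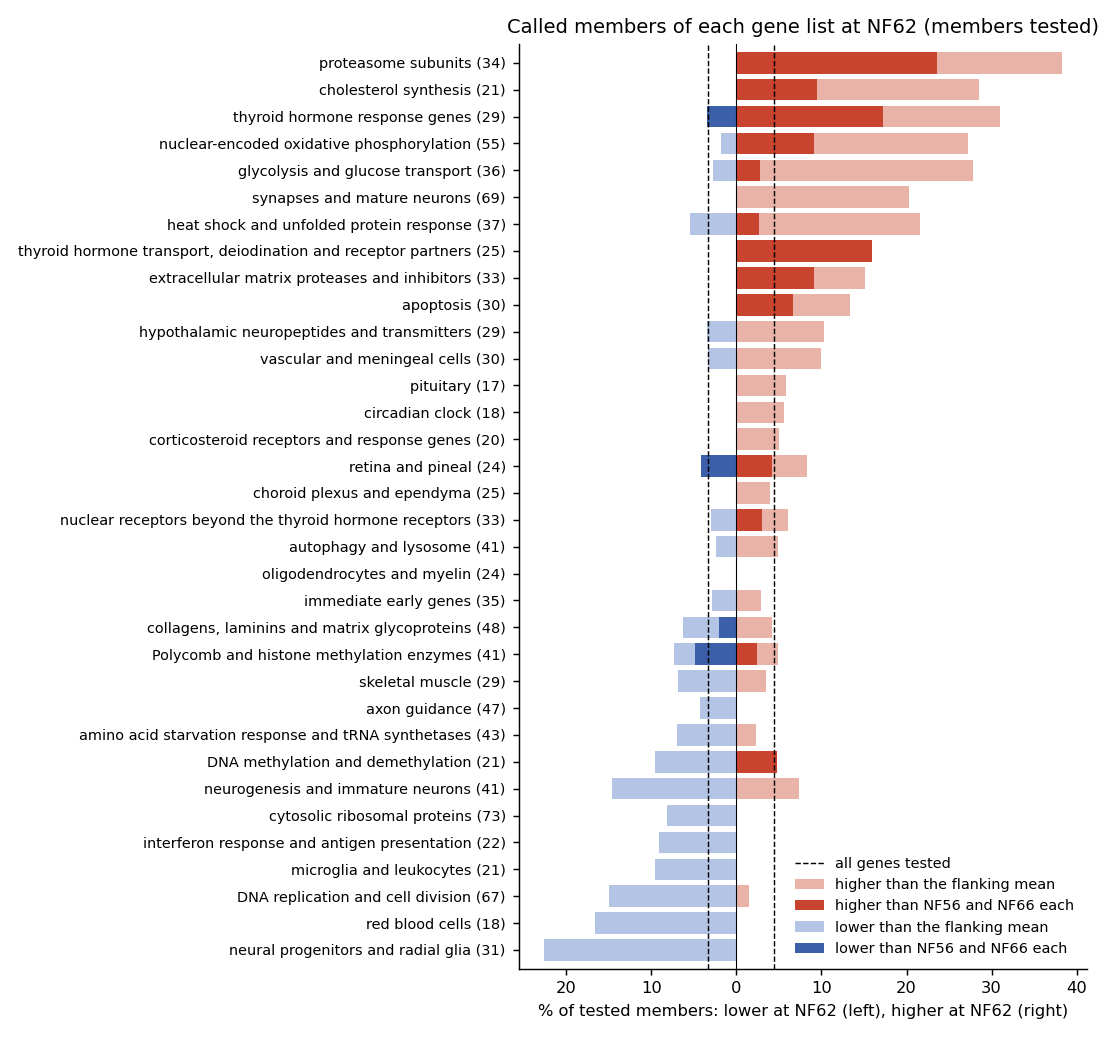
Share of tested members of each of 34 gene lists called higher (right, red) or lower (left, blue) at NF62 than the flanking mean; dark bars are members apart from both NF56 and NF66, dashed lines the share over all genes tested (4.42% and 3.30%), and the number tested is in brackets. Proteasome subunits have the longest bar to the right (13 of 34) and neural progenitors the longest to the left (7 of 31).

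Markers of other cell types were measured in the same fit, in which 4.42% of all genes tested were higher and 3.30% lower. Microglia and leukocyte genes had 2 of 21 members lower and none higher, red blood cell genes 3 of 18 lower and none higher, interferon and antigen presentation genes 2 of 22 lower, vascular and meningeal genes 3 of 30 higher and 1 lower, and choroid plexus and ependyma 1 of 25 higher. Defining red blood cell markers summed to 134.2 to 172.7 CPM at NF62, 460.9 to 565.3 CPM at NF56 and 91.6 to 133.1 CPM at NF66, and microglia markers to 55.5 to 93.7, 93.3 to 96.9 and 62.7 to 82.5 CPM in the same order. In muscle, 1 of 29 genes was higher and 2 were lower, and in the retina and pineal list 2 of 24 were higher and 1 was lower. The pituitary hormone gene prl was the 1 call among 17 pituitary genes, with 6.57, 5.18 and 11 CPM at NF62, against 2.25, 2.33 and 4.21 CPM at NF56 and 2.22, 2.46 and 5.34 CPM at NF66. Its NF62 libraries overlapped NF66, and it passed the contrast at 1.28 ± 0.32 (adjusted p = 0.036). No list of another cell type, apart from prph2 and guca1b in the retina and pineal list, had a member apart from both flanking stages, and the part of these cell types in the other results was not tested.

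The flanking stages differed from each other as well. Over all genes, 2160 were higher at NF66 than at NF56 (11.0%) and 1975 were lower (10.1%). Of the 123 genes above both stages, 31 were also higher at NF66 than at NF56 (25.2%), 5 were lower (4.07%) and 87 did not pass. Those 31 include thibz, dio3, thrb, inhbb, nfic, dnmt3a, nudt22 and pmepa1. That their NF66 level lies between NF56 and NF62 follows from the way these calls are defined. In the 103 genes below both, 6 were higher at NF66 (5.83%), 12 lower (11.7%) and 85 did not pass. The NF62 libraries also lay above all NF50 libraries in 97 of the 123 genes, below them in 4 and among them in 22. Of the 103, they lay below all NF50 libraries in 92, above them in 3 and among them in 8. Over all genes tested, NF62 lay above NF50 in 22.5% and below it in 24.4%. These NF50 counts are a description only. NF50 was in none of the contrasts, but its libraries shared the estimate of the spread that set the calls. The genes were also chosen for high or low NF62 values, so these counts are not independent of the choice.

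The contrast also picked genes that do not peak or dip at NF62. The zinc finger gene znf704 passed it with 4.63, 3.91 and 3.25 CPM at NF62, against 31.4, 49.7 and 52.2 CPM at NF56 and 3.74, 6.08 and 7.01 CPM at NF66. The NF62 and NF66 libraries overlapped, and its -2.01 ± 0.23 (adjusted p = 0.0012) came with no call against NF66 (-0.52, adjusted p = 0.36). The phospholipase gene pla2g2e was likewise at 1.75 ± 0.295 CPM at NF62, against 25.2 ± 9.75 CPM at NF56 and 0.751 ± 0.108 CPM at NF66 (-1.33 ± 0.35, adjusted p = 0.041). It passed the contrast in 4 of the 12 fits with a library left out.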

How the data were processed

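RNA-seq libraries of the dissected brain block at 4 stages were quantified by the authors before deposit. Per the file headers, the deposited tables hold expected counts and TPM per gene model in each library, the estimated counts as RSEM writes them and the TPM as a signal scaled within the library; CASAVA 1.8.2, cutadapt, Bowtie, RSEM and DESeq2 appear in the submitters' processing notes, with no role given. No source named the genome build or annotation. Of the expected counts, 53.7% had a fractional part, and all were rounded. The table has 35241 lines for 33875 gene models, since some models have several names, and each model was used once. Names were taken from the files alone: 13153 models carry one, and 390 carry several.

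Models passed edgeR's filterByExpr (minimum count 10, minimum total 15), which left 19584 with 99.93% of all counts. With TMM scaling, 1 quasi-likelihood model of the 4 stages was fitted to the 12 libraries in edgeR 4.0.16 (R 4.3.3), with a biological coefficient of variation of 18.3%. Contrasts were NF62 minus the mean of the NF56 and NF66 stage means, NF62 minus each of them, and NF66 minus NF56. P-values were adjusted by the Benjamini-Hochberg method over all models, at 0.05. They measure the spread between these samples, which may be technical. The scripts were tested on simulated data.

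Named genes are 15 chosen for their role, the 12 largest rises and 12 largest falls among models called against both stages (1 symbol, at least 5 CPM in the higher stage or the lower flank, no overlap), the 2 largest members of each list with at least 3 such calls, and the 2 largest on each side that passed the contrast but not both stages. Others were chosen after their values were seen. The genes and the 34 lists (1456 symbols, 1180 of them matched) were chosen with earlier results of these data known. Alternatives were RLE scaling, DESeq2 1.42.0, no filter on low counts, a minimum count of 50, a model of the 9 libraries of NF56, NF62 and NF66, the replicate number as a block, limma 3.58.1 on log2(TPM + 1), and each library left out in turn. Sequences of the genes were not analysed here. The result for a further gene of the hormone lists is not reported here.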

Additional observations from a re-analysis of the deposited data

How the results depend on the processing

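Counts of genes higher and lower than the flanking mean, above both stages and below both stages were 865, 647, 123 and 103. They were 900, 661, 135 and 110 under RLE scaling and 1028, 764, 169 and 142 with a minimum count of 50, all within 1.5 times. DESeq2 gave 1302, 978, 275 and 214. No filter on low counts gave 607, 428, 61 and 69, over more models tested, and the 9 libraries alone 553, 423, 56 and 54. Limma on log2(TPM + 1) gave 23, 23, 2 and 1. Leaving out 1 library gave 336 to 825, 208 to 688, 29 to 113 and 13 to 109, with fewer samples in the fit. Of the genes above and below both stages, 36 and 18 also differed between NF66 and NF56. These were 82 and 37 with DESeq2, 14 and 12 without a filter, 16 and 6 in the 9 libraries, 2 and 0 with limma, and 8 to 28 and 3 to 19 with a library left out. Of the 123 and 103 genes, DESeq2 called 122 and 96 as well, RLE scaling 120 and 100, and limma 2 and 1; apart from fewer samples or more models, the cause of these shifts was not tested. Beside the limma count of 0, edgeR gave 18. No gene called against both stages changed direction in any of these fits; nr3c1, which was never called, ranged from -0.13 to 0.03 with a library left out.

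The replicate numbers were checked for pairing. Libraries with the same number correlated in their deviations from the stage means at 0.592, 0.523 and 0.638 for replicate 2 and 0.476, 0.591 and 0.559 for replicate 3. For replicate 1 the values were -0.146, 0.0912 and -0.181. Not every library correlated best with its own number: NF66 replicate 3 was at 0.56 with NF62 replicate 1 and 0.559 with NF62 replicate 3. The labels give the number alone, and what libraries of replicates 2 and 3 share was not tested. A fit with the replicate number as a block gave 1754 genes higher, 1493 lower, 381 above both, 397 below both, and 118 and 114 of these also different between NF66 and NF56, with all 123 and 103 genes among them.

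With 3 libraries a stage, adjusted p-values near 0.05 against NF66 set many calls, and removing 1 NF62 library lost most of those above both stages. The smallest log2 fold changes called against both stages were 0.18 upward and -0.22 downward. Models with several names cannot be split into their genes.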

Other observations

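Several models that carry no name in the files also stood apart from both stages. The 4 given here were chosen after their values were seen, and all kept the call against both stages with any library left out. XLOC_014132 was among the most abundant of them, with 4008, 5154 and 3887 CPM at NF62, against 836.8, 758.4 and 584.7 CPM at NF56 and 1977, 1904 and 1466 CPM at NF66 (1.93 ± 0.13, edgeR adjusted p = 5.1e-05). XLOC_017864 was higher by 0.59 ± 0.06. XLOC_015590 had 8.99, 7.5 and 8.17 CPM at NF62, against 20.6, 25.7 and 20.7 CPM at NF56 and 15.1, 20.6 and 17.2 CPM at NF66 (-1.27 ± 0.12, edgeR adjusted p = 0.00057), and XLOC_009146 was lower by 0.59 (log2 fold change -0.59 ± 0.06).

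Chaperone genes, also picked after their values were seen, lay on both sides. The endoplasmic reticulum chaperone gene hyou1 was at 28.3 CPM on average at NF62, 17.3 CPM at NF56 and 21.2 CPM at NF66 (0.56, edgeR adjusted p = 0.0025), the HSP90 activator gene ahsa1 was higher by 0.62 and the chaperonin gene cct2 by 0.32, while the HSP90 cochaperone gene fkbp4 had a log2 fold change of -0.46. All 4 stood apart from both stages; with a library left out, hyou1 kept that call in 3 of the 12 fits, ahsa1 in 1, cct2 in 8 and fkbp4, the 1 lower gene, in 2.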
